A study of Mus musculus with 6 samples.

Results

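Homeostatic microglia genes are those that mark microglia, the resident macrophages of the brain, in the healthy adult. The 9 genes described here are Tmem119, Cx3cr1, Sall1, Siglech, Fcrls, Csf1r, Slc2a5, Olfml3 and Selplg. They were taken by gene symbol from RNA-seq libraries of cells sorted from the mouse olfactory bulb, and each was listed in all 6 libraries. The libraries list 24421 genes. Of these, 18413 had a mean of at least 1 normalized count and were tested, and all 9 members were among them, so that none was lost to the filter on low values.

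All 6 mice were males, given as strain C57BL/6, and had received AAV-GFAP-iCre-P2a-TurboRFP in the olfactory bulb 4 weeks earlier. This virus expresses Cre recombinase and the red fluorescent protein TurboRFP from the GFAP promoter, which is active in astrocytes. The 3 Sox9 KO mice carried Sox9fl/fl, so that Cre could delete Sox9, a transcription factor of astrocytes. The 3 control mice received the same virus and had no floxed allele (C57BL/6J by the labels' protocol and Sox9+/+ in the study's methods). In the study's list of mouse lines the floxed line carries a strain name other than C57BL/6J, so strain background may differ with genotype. The mice were adult by the study's general methods, which give no age for each mouse. TurboRFP-positive cells of each mouse were sorted straight into lysis buffer, without a re-sort to measure purity, and gave 1 library each, amplified from 10 ng of RNA. The replicates are therefore separate mice. As its check of purity the study names known cell-type markers in the RNA-seq data.

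Microglia depend on colony-stimulating factor 1 receptor signalling to survive. TGF-beta, together with the transcription factors PU.1, IRF8 and SALL1, maintains their adult gene programme. In injury, disease or culture, microglia commonly lose part of this programme and take up genes of a disease-associated state. Astrocytes, the cells named on the labels, are not a known source of most of these transcripts.

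Sox9 was counted in 3548, 9535 and 3122 reads in the 3 control libraries and in 53, 163 and 38 reads in the 3 KO libraries, which matched the labels. Reads on genes ranged from 18242129 to 86906527 per library, and the ribosomal RNA gene Rn45s took 14.2 to 22.4% of them. The summed share of reads on 12 astrocyte genes was 1.89 to 1.99% in control and 0.103 to 0.148% in KO libraries, and all 12 genes fell. The astrocyte label therefore matched its markers in control libraries, while KO libraries held little of them. Marker genes of microglia were present in both groups.

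Promoter sequences were looked up for the members in a RefSeq table of GRCm38.p6. The search covered 6 of the 9 genes (Cx3cr1, Fcrls, Olfml3, Sall1, Siglech and Slc2a5) with 8 start sites. Tmem119 and Selplg had no entry, and Csf1r was left out of the search. The member counts below therefore hold for the 6 genes searched only. Whether the promoter of Csf1r holds any of the sites was not tested. The 250 bases before each start were searched on both strands for short sequences bound by factors of the microglial programme. GAGGAAGT, a form of the PU.1 site, was found in 2.44% of all 32851 promoters and in 0 of the 8 member promoters. GGAANNGAA, a composite site of PU.1 and IRF factors, was found in 6.99% of all promoters and in 0 of the 8. CAGACA, which SMAD proteins, the mediators of TGF-beta signals, can bind, was found in 17.1% of all promoters and in 1 promoter each of Siglech, Slc2a5 and Fcrls. These 3 sequences are shown because they hold the only matches in the 8 promoters searched. They also belong to the members with the largest fold change and the lowest level and to the member that did not follow the others. A link between the site and these traits was not tested. Capitals mark CAGACA or, for Siglech, its reverse complement. The match begins 75 bases before the start of Siglech, 221 bases before that of Slc2a5 and 89 bases before that of Fcrls. Annotated exon was left out, except for Fcrls, whose window overlaps exons of other annotated transcripts and of which 30 bases are given.
Siglech, chr7:55767934-55768177, + strand: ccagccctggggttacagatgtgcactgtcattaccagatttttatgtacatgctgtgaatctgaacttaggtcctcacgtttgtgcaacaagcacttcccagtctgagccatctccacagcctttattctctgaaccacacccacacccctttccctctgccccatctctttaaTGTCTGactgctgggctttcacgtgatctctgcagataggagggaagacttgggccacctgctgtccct
Slc2a5, chr4:150119094-150119235, + strand: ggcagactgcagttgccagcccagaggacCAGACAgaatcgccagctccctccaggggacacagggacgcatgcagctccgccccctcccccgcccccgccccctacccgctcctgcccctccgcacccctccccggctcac
Fcrls, chr3:87263596-87263625, - strand: tggactgattgaCAGACAactttgccactt

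As a group, the homeostatic microglia genes were higher in KO than in control libraries. Of the 9 members, 8 rose (limma, adjusted p under 0.05 and at least 1.5-fold) and 0 fell, where 22.2% of all genes tested rose and 28.8% fell. In these 8 members every KO library lay above every control library, which was so for 32.4% of all genes tested. The median log2 fold change of the 9 members was 1.64, against -0.07 for all genes tested, and Fcrls was the exception in each of these counts. Values below are normalized counts, in which the reads of a gene were divided by the size factor of the library. A fold change is KO over control on the scale of log2(normalized count + 1), with its SE from limma and a p-value adjusted over all genes tested. In bulk samples, more microglia among the sorted cells and more of this RNA per microglial cell cannot be told apart.

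**Figure D1:**
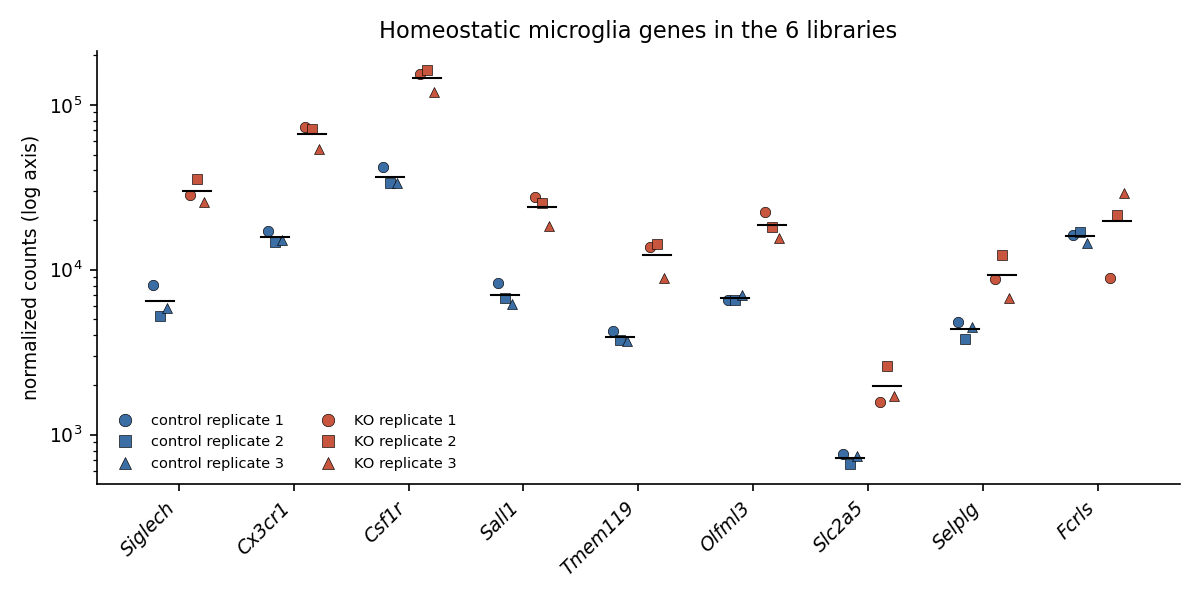
Normalized counts (log axis) of the 9 homeostatic microglia genes in each of the 3 control (blue) and 3 KO (red) libraries, with marker shapes for replicates and black bars for group means. In 8 genes the red points lie above all blue points, and in Fcrls KO replicate 1 (8915) lies below the control libraries.

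Of the surface receptors, Csf1r, the receptor for the growth factors CSF1 and IL-34, had normalized counts of 41959, 33815 and 33397 in control and of 154467, 161840 and 120179 in KO libraries. The groups did not overlap, and the lowest KO library was well above the highest control library. Its mean was 36390 ± 4827 (SD, n = 3) in control and 145495 ± 22232 (SD, n = 3) in KO, a log2 fold change of 1.996 (SE 0.15, limma adjusted p = 1.2e-06). Cx3cr1, the receptor for the neuronal chemokine fractalkine, had normalized counts of 17140, 14792 and 15159 in control and of 73219, 71091 and 54357 in KO libraries. KO replicate 3 was the lowest KO library, as it was for Csf1r, and still lay above each control. The log2 fold change of Cx3cr1 was 2.07 (SE 0.13, limma adjusted p = 3.4e-07). Siglech, a sialic acid-binding receptor that signals through the adaptor DAP12, had normalized counts of 8105, 5246 and 5895 in control and of 28389, 35521 and 25912 in KO libraries. It had the largest change of the members, a log2 fold change of 2.23 (SE 0.17, limma adjusted p = 1.1e-06), and its groups did not overlap.

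Some annotated genes overlap Csf1r and Cx3cr1, and the counting is not stated to use strand. Cx3cr1 (chromosome 9, 119901616 to 120069879, - strand, in GENCODE for GRCm38) spans 9 other genes through a long transcript. One of them, Csrnp1, had normalized counts of 815 to 957 in control and of 2905 to 3977 in KO libraries, well under those of Cx3cr1. Csf1r (chromosome 18, 61105572 to 61132149, + strand) overlaps Hmgxb3 at 635 to 793 normalized counts in control and 1237 to 1330 in KO libraries, also well under those of Csf1r. The other 7 members overlap no annotated gene.

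Sall1, a zinc finger transcription factor that within the brain's immune cells marks microglia, had normalized counts of 8302, 6709 and 6182 in control and of 27602, 25558 and 18506 in KO libraries. The groups were well apart. Its log2 fold change was 1.75 (SE 0.16, limma adjusted p = 4.8e-06). Tmem119, a transmembrane protein used to tell microglia from other macrophages, had normalized counts of 4255, 3722 and 3703 in control and of 13721, 14364 and 8966 in KO libraries. KO replicate 3 stood below the other KO libraries, and the groups did not overlap. Tmem119 had a log2 fold change of 1.64 (SE 0.16, limma adjusted p = 9.4e-06).

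Olfml3, a secreted olfactomedin-like protein, had normalized counts of 6506, 6560 and 7050 in control and of 22402, 18068 and 15682 in KO libraries. Its control libraries were the closest together of all members, with a ratio of the highest to the lowest of 1.08. Olfml3 had a log2 fold change of 1.47 (SE 0.12, limma adjusted p = 3.0e-06). Slc2a5, the fructose transporter GLUT5, had the lowest counts, 764, 661 and 736 in control and 1565, 2615 and 1701 in KO libraries. The groups did not overlap, and KO replicate 2 stood above the other KO libraries. Slc2a5 had a log2 fold change of 1.41 (SE 0.18, limma adjusted p = 5.3e-05).

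Selplg, which encodes the selectin ligand PSGL-1 and is also made by leukocytes of the blood, had normalized counts of 4802, 3797 and 4499 in control and of 8791, 12198 and 6768 in KO libraries. KO replicate 3 lay closest to the controls, without overlap. Selplg had a log2 fold change of 1.05 (SE 0.18, limma adjusted p = 0.00060), the smallest of the 8 members that rose.

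Fcrls, an Fc receptor-like scavenger receptor used as a microglial marker in mice, had normalized counts of 16300, 16949 and 14482 in control libraries. In KO libraries it had 8915, 21453 and 29098 normalized counts. KO replicate 1 was below all control libraries and KO replicates 2 and 3 were above them, so the groups overlapped. The log2 fold change was 0.16 (SE 0.34, 95% interval -0.59 to 0.90, limma adjusted p = 0.70). Without KO replicate 1 it was 0.65 (limma adjusted p = 0.0029), and Fcrls was then called higher. Without KO replicate 3 it was -0.20 (limma adjusted p = 0.58), and scaling the libraries to the same total gave -0.084 (limma adjusted p = 0.86).

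The spread of Fcrls between KO mice was wide for a gene at its level. Its highest KO library was 3.26 times its lowest. This ratio was 1.35 to 1.80 in the other 8 members and 1.04 to 1.45 in 16 pan-myeloid genes, and its median over the 5208 genes with a mean of at least 1000 was 1.17. Of these genes, 18 (0.346%), with Fcrls itself counted, reached the ratio of Fcrls. The KO library that was lowest for Fcrls was not the one that was lowest for most members. KO replicate 3 was the lowest KO library in 7 members, and KO replicate 1 was the lowest for Fcrls and Slc2a5. Of the 16 pan-myeloid genes, KO replicate 3 was the lowest in 7 and KO replicate 1 in 2. This was not counted over all genes.

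**Figure D2:**
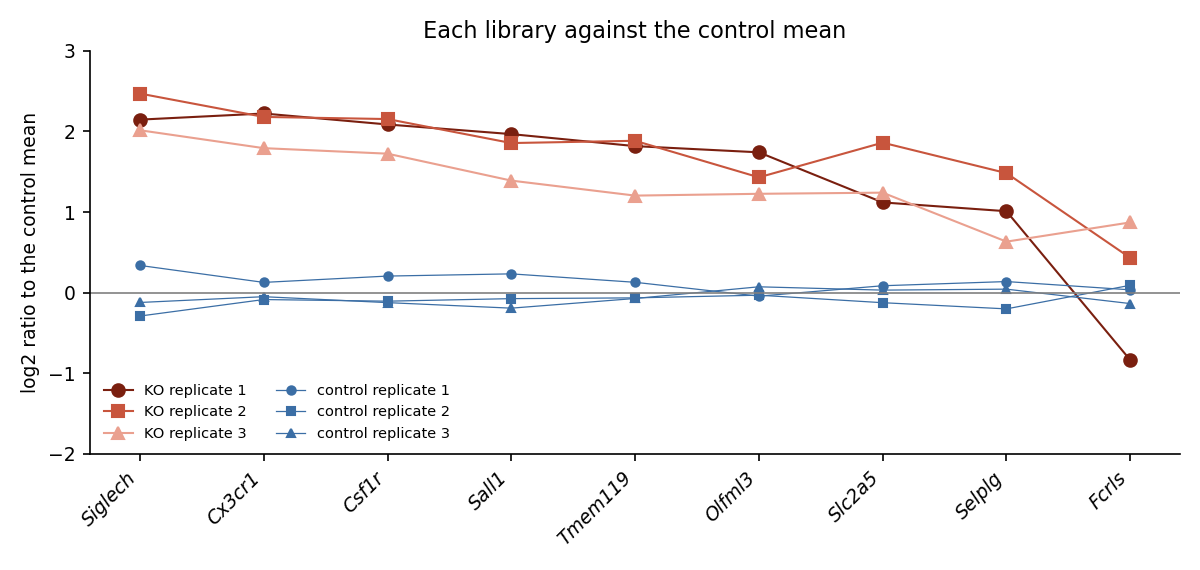
Log2 ratio of each library to the control mean for the 9 genes, ordered by fold change, with 1 line per library (KO in reds, control in blue). KO replicate 3 (light) runs under the other KO lines from Siglech to Olfml3, and KO replicate 1 (dark) drops below 0 at Fcrls, where its ratio to the control mean is 0.560.

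The 9 members together took 0.356% of the reads on genes in control replicate 1 (exact 95% interval 0.354 to 0.359), 0.300% in control replicate 2 (0.298 to 0.302) and 0.317% in control replicate 3 (0.314 to 0.319). They took 0.892% in KO replicate 1 (0.889 to 0.895), 1.06% in KO replicate 2 (1.06 to 1.06) and 0.824% in KO replicate 3 (0.820 to 0.827). Each KO library was above each control library, and the intervals cover counting error only. The mean share was 0.324 ± 0.0288% (SD, n = 3) in control and 0.924 ± 0.120% (SD, n = 3) in KO, 2.85-fold higher (exact two-sided permutation p = 0.10, the smallest that 3 libraries against 3 allow). The 16 pan-myeloid genes are genes of myeloid cells, the group that holds microglia and other macrophages. Their summed share was 3.61-fold higher, with means of 0.546 ± 0.0315% over the controls and 1.97 ± 0.0321% over the KO libraries (SD, n = 3).

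Whether the members moved as much as other genes of myeloid cells was asked by expressing each gene relative to the pan-myeloid genes of the same library. The pan-myeloid genes, which include Ctss, Itgam and C1qb, rose in 16 of 16 cases, with a mean log2 fold change of 1.94 (3.83-fold) and a range from 1.204 to 2.70. Relative to them, 0 of the 9 members were called higher, as were 0.809% of all genes tested. Selplg and Fcrls, 2 of 9, were called lower, as were 84.3% of all genes tested, since the reference itself was higher in KO libraries. The reference genes did not move as one. Of these 16 genes, 1 was itself called higher (relative log2 fold change 0.76) and 1 was called lower (-0.73). An adjusted p under 0.05 was reached by 7 of the 16. The median relative log2 fold change was -0.30 for the members and -2.002 for all genes tested.

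The 3 receptors Csf1r, Cx3cr1 and Siglech did not pass the test relative to the pan-myeloid genes. Their relative log2 fold changes were 0.06 (95% interval -0.30 to 0.42), 0.13 (-0.17 to 0.44) and 0.30 (-0.11 to 0.71), with limma adjusted p-values of 0.74, 0.39 and 0.15. For Sall1 and Tmem119 the values were -0.19 (-0.54 to 0.16) and -0.30 (-0.66 to 0.07), with limma adjusted p-values of 0.28 and 0.11. In each of these 5 genes the relative levels of the groups overlapped, and differences of the sizes within these intervals were not excluded.

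Olfml3 and Slc2a5 were lower relative to the pan-myeloid genes by less than the 1.5-fold limit. The relative log2 fold change of Olfml3 was -0.47 (95% interval -0.72 to -0.22, limma adjusted p = 0.0021), with all 3 KO libraries below all controls. For Slc2a5 it was -0.53 (-0.98 to -0.08, limma adjusted p = 0.031), with overlap between the groups. Without KO replicate 2 the value of Slc2a5 was -0.80, and without control replicate 2 it was -0.59, both past the limit.

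Selplg was lower by -0.89 on the relative log2 scale (95% interval -1.32 to -0.45, limma adjusted p = 0.0012). Its relative log2 levels were -0.31, -0.67 and -0.48 in control and -1.53, -0.84 and -1.75 in KO libraries, without overlap. Fcrls was lower by -1.78 (-2.56 to -0.99, limma adjusted p = 0.00056). Its relative log2 levels were 1.46, 1.48 and 1.21 in control and -1.51, -0.03 and 0.36 in KO libraries. All KO libraries were below the controls here, including KO replicates 2 and 3, in which its normalized counts were higher than in control.

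**Figure D3:**
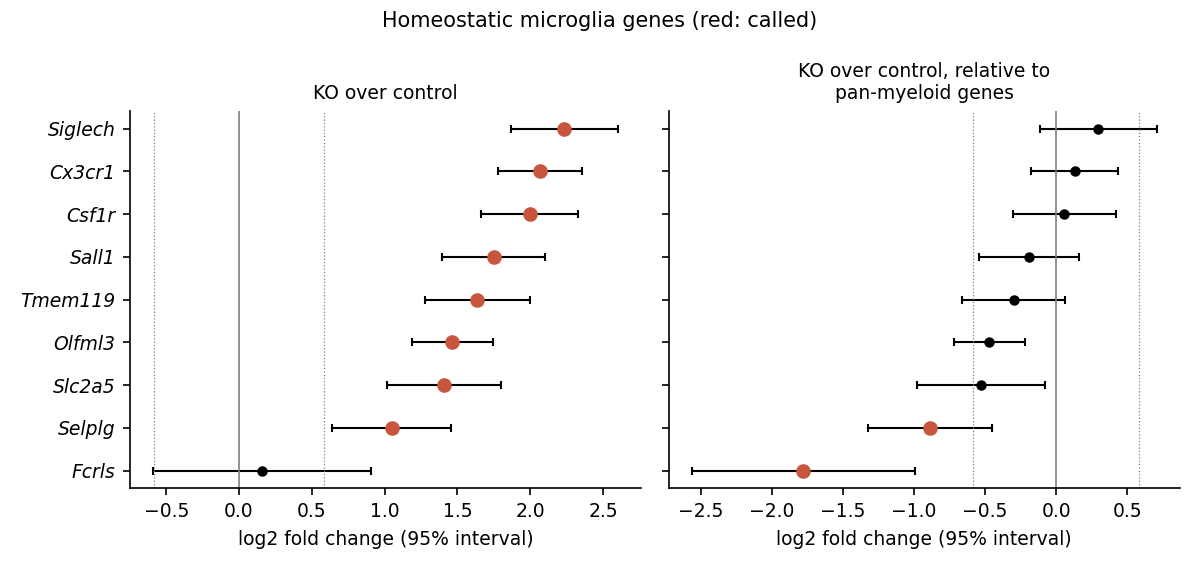
Log2 fold change (KO over control) with its 95% interval for each of the 9 genes, as measured (left) and relative to the 16 pan-myeloid genes of the same library (right). Red points were called at an adjusted p under 0.05 and 1.5-fold, and dotted lines mark 1.5-fold. On the left 8 genes are red and the interval of Fcrls spans 0, and on the right Selplg (-0.89) and Fcrls (-1.78) are red and lie to the left of 0.

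Levels of different members were compared only after division by exon length, as normalized counts per kb of exon. In control libraries the order of the mean levels per kb was Csf1r (7449), Fcrls (7000), Cx3cr1 (3484), Selplg (2354), Siglech (1953), Tmem119 (1737), Sall1 (1342), Olfml3 (1227) and Slc2a5 (228). The libraries of Csf1r and Fcrls overlapped, as did those of Selplg and Siglech, of Siglech and Tmem119, and of Sall1 and Olfml3. The other neighbours in this order did not overlap.

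In KO libraries the order of the mean levels per kb was Csf1r (29784), Cx3cr1 (14700), Siglech (9114), Fcrls (8721), Tmem119 (5509), Selplg (4988), Sall1 (4537), Olfml3 (3425) and Slc2a5 (621). Csf1r stood above Cx3cr1, Cx3cr1 above Siglech, and Olfml3 above Slc2a5 without overlap. From Siglech down to Olfml3 each gene overlapped its neighbour. Csf1r was the highest and Slc2a5 the lowest member in both groups, while the mean of Fcrls went from the 2nd to the 4th place and that of Selplg from the 4th to the 6th.

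**Figure D4:**
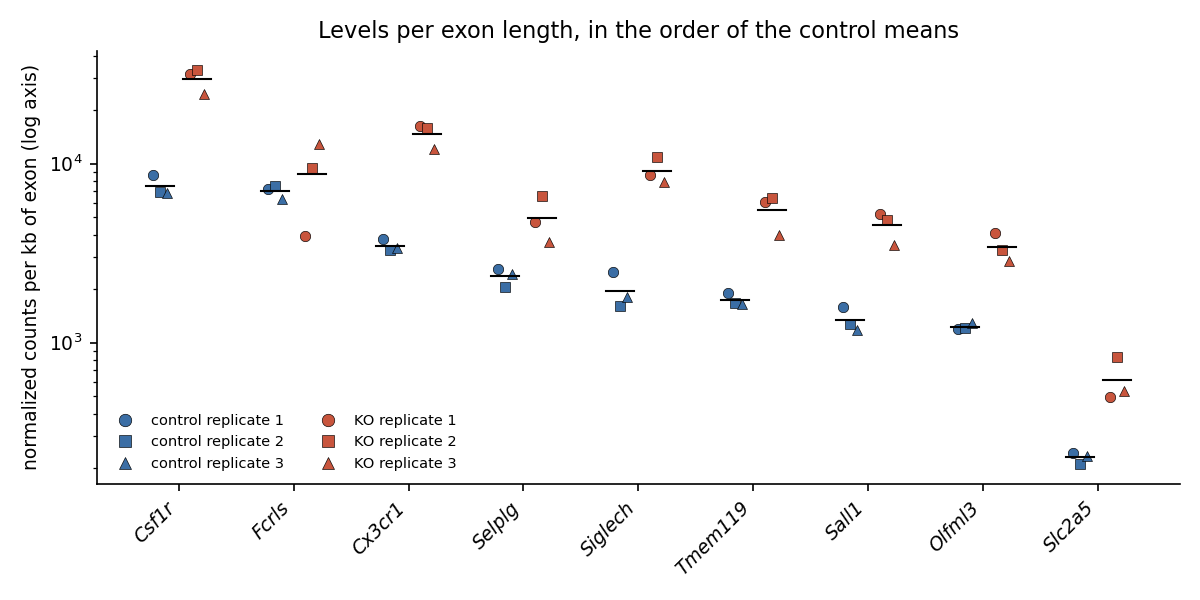
Normalized counts per kb of exon (log axis) of the 9 genes in control (blue) and KO (red) libraries, in the order of the control means, with black bars for group means. Fcrls lies beside Csf1r in control libraries (7000 and 7449) and well under it in KO libraries (8721 and 29784).

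Genes that the members act with went both ways. Of 10 ligands and partners, 5 rose and 4 fell, with a median log2 fold change of -0.20. Tyrobp, which encodes the adaptor DAP12, had normalized counts of 7301, 7688 and 8745 in control and of 32522, 28514 and 32235 in KO libraries. It rose without overlap, by 1.98 (SE 0.10, limma adjusted p = 9.0e-08), and the related adaptor gene Hcst rose by 1.84 (limma adjusted p = 8.8e-05). Cx3cl1, the neuronal ligand of CX3CR1, had normalized counts of 975, 978 and 1045 in control and of 175, 409 and 193 in KO libraries. It fell by 2.05 (SE 0.27, limma adjusted p = 7.8e-05), also without overlap.

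The ligands of CSF1R went opposite ways. Csf1 had normalized counts of 2920, 4081 and 4005 in control and of 5709, 6675 and 7468 in KO libraries. It rose by 0.86 on the log2 scale (limma adjusted p = 0.00043). Il34, which neurons make, fell by 1.49 (limma adjusted p = 0.0088). It had 40.9 to 55.0 normalized counts in control and 9.93 to 19.8 in KO libraries, the latter from 10, 47 and 13 reads. Both kept their direction under all 18 alternatives, but Csf1 lost its call under 2 of them and Il34 under 1. The sheddases Adam10 and Adam17, which can release fractalkine from the cell surface, rose by 1.10 and 1.22 (limma adjusted p = 8.7e-07 and 8.8e-07). The selectin genes Selp and Sele, whose products bind PSGL-1, were near the floor of the data. Selp (0 to 11.0 normalized counts over the 6 libraries) and Sele (0 to 32.3) fell (limma adjusted p = 0.012 and 0.040). Sele lost its call under 8 of 18 alternatives, among them those without KO replicate 2 or 3 or control replicate 2 or 3 (limma adjusted p from 0.11 to 0.16), and Selp lost its call on recovered reads in edgeR (adjusted p = 0.071) and DESeq2 (adjusted p = 0.083).

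Among 15 transcription factors and signals of the microglial programme, 13 rose and 1 fell, with a median log2 fold change of 1.73. Spi1, which encodes PU.1, rose by 1.83, Irf8 by 2.10, Runx1 by 1.85 and Mef2c by 1.56 on the log2 scale (limma adjusted p from 4.1e-08 for Irf8 to 2.4e-06 for Spi1). Cebpa, a myeloid transcription factor, had the largest log2 fold change of those that rose, 2.68 (limma adjusted p = 3.2e-08). It was the 1 gene of the list called higher relative to the pan-myeloid genes (relative log2 fold change 0.74, limma adjusted p = 0.00022).

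Genes of the TGF-beta pathway also went both ways. The ligand Tgfb1 rose by 1.46, its receptor Tgfbr2 by 1.90, and Nrros, which holds latent TGF-beta on microglia, by 1.63 (limma adjusted p = 1.9e-05, 4.2e-08 and 2.9e-07). Lrrc32, which holds latent TGF-beta on other cells, fell by 3.55 (limma adjusted p = 9.6e-06). Smad3, a mediator of the signal that many cell types express, had normalized counts of 1821, 1902 and 1783 in control and of 2042, 2280 and 1844 in KO libraries. Its groups overlapped, and its log2 fold change was 0.16 (SE 0.10, limma adjusted p = 0.20).

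Of 18 other genes of the homeostatic set, 15 rose and 1 fell, with a median log2 fold change of 1.60. Cst3 (cystatin C) and P2ry12 (the purine receptor that directs microglial processes) were among the genes with the highest means, and rose by 1.10 and 1.43 (limma adjusted p = 6.1e-05 and 4.0e-05). P2ry12 had normalized counts of 29785, 21162 and 19862 in control and of 57579, 76927 and 55839 in KO libraries, without overlap. Crybb1 rose most, with a log2 fold change of 2.91 (limma adjusted p = 9.4e-07). Sparc, a matrix protein that astrocytes and vessels also make, fell by 0.80 (limma adjusted p = 0.0028), and Adgrg1 and Ecscr had log2 fold changes of -0.33 and 0.12 (limma adjusted p = 0.088 and 0.71). Relative to the pan-myeloid genes, 7 of the 18 were called lower and 1, Crybb1, was called higher.

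Of 18 disease-associated microglia genes, 15 rose and 1 fell, with a median log2 fold change of 1.47, beside 1.64 for the members. Apoe, a lipid carrier that astrocytes also make, rose by 0.97, and the lysosomal proteases Ctsd and Ctsb rose by 1.504 and 1.62 (limma adjusted p = 0.0013, 2.4e-06 and 1.5e-06). Apoe had a log2 fold change of 0.45 after quantile normalization and was then not called, and the 1 gene that fell was not called without KO replicate 2, control replicate 2 or control replicate 3. Relative to the pan-myeloid genes, 3 of the 18 were called higher and 6 lower, where 0.809% and 84.3% of all genes tested were. Those called higher were Clec7a (0.96), Gpnmb (0.97) and Itgax (0.76). Those called lower were Apoe (-0.96), Axl (-0.61), Cd9 (-0.71), Cd63 (-1.26), Fabp5 (-1.58) and Ch25h (-3.28). The difference between this list and the members was not tested.

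**Figure D5:**
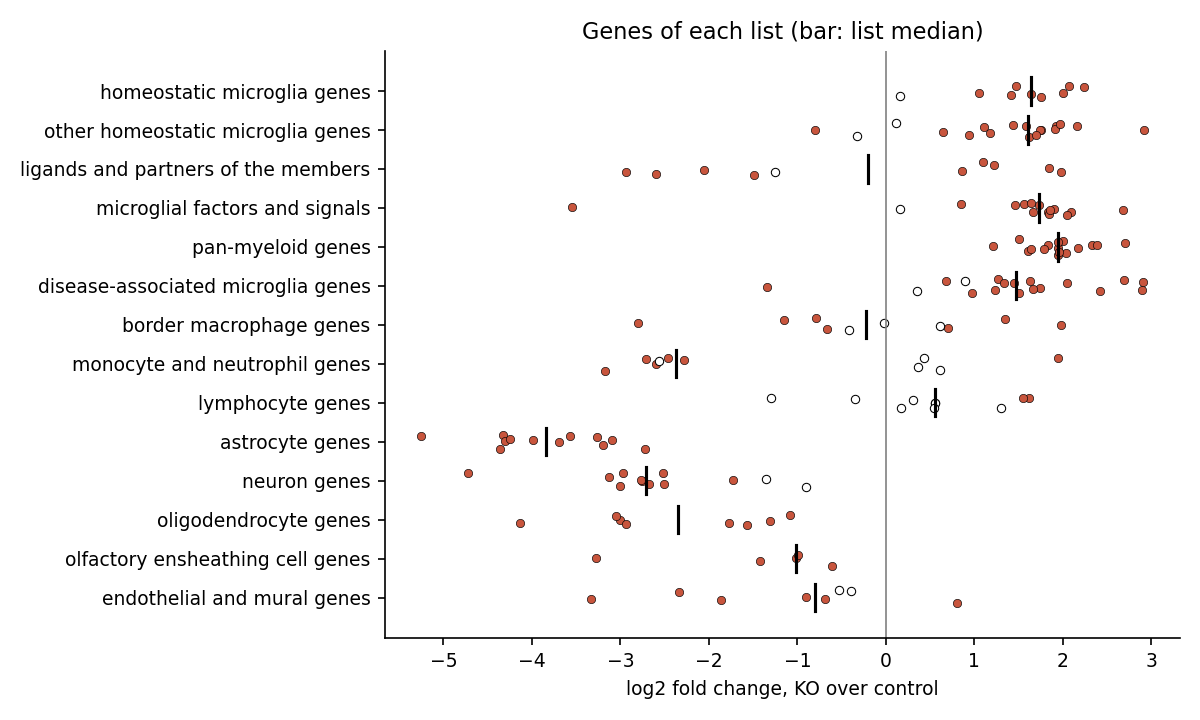
Log2 fold change (KO over control) of the tested genes of each list, 1 point per gene, filled where called and open where not, with a bar at the list's median. The 9 homeostatic genes (median 1.64) lie with the other microglial and pan-myeloid lists to the right of 0, and the astrocyte (-3.84), neuron (-2.71) and oligodendrocyte (-2.35) lists lie to the left.

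Markers of other cells that the sorted material could hold moved between the groups as well, and their part in the results above was not tested. The 12 neuron genes, with 10 that fell and 0 that rose, took 0.0647 to 0.0942% of reads in control and 0.00769 to 0.0145% in KO libraries. All 8 oligodendrocyte genes fell, with summed normalized counts of 36392 to 59970 in control and of 14083 to 23317 in KO libraries, and so did all 5 genes of olfactory ensheathing cells, the glia of the olfactory nerve (4060 to 4945 and 1294 to 2714). Of these 5, Npy passed narrowly (log2 fold change -0.60, limma adjusted p = 0.046), its groups overlapped, and it lost its call under 11 of 18 alternatives, with 3 to 5 genes of the list called lower over all of them. Of 8 endothelial and mural genes 5 fell and 1 rose (3510 to 4279 and 2090 to 2380), and 3 fell without control replicate 3. No gene of these lists was at 0 in every library.

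Markers of other blood and border cells did not follow the members as a group. Of 10 border macrophage genes, 3 rose and 4 fell (summed normalized counts 18867 to 28517 in control and 31599 to 38290 in KO libraries), with a median log2 fold change of -0.22. Mrc1, the mannose receptor, rose by 0.70 and Stab1, a scavenger receptor, by 1.35, while F13a1 fell by 0.79 (limma adjusted p = 0.0010, 3.6e-05 and 0.0021). Mrc1 lost its call under 3 of 18 alternatives, with log2 fold changes of 0.10 after quantile normalization, 0.45 at the same total and 0.37 at the same total without Rn45s. Of 10 monocyte and neutrophil genes 1 rose and 5 fell (924 to 5880 and 946 to 1549). The number that fell was 3 without KO replicate 2 and 2 without control replicate 2, the number that rose was 0 without KO replicate 3, and S100a9 and S100a8 stood apart in control replicate 2, at 2275 and 1721 normalized counts. Of 10 lymphocyte genes 2 rose and 0 fell (229 to 400.4 and 573 to 775), with 1 to 3 called higher and 0 or 1 called lower when 1 library was left out. Lyve1, a border macrophage receptor, fell by 2.80 (limma adjusted p = 1.2e-06), and was picked out after its value was seen.

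The genes whose pattern over the 6 libraries was most like the mean pattern of the 9 members were Sipa1, Rapgef5, Sirpa, Rxra and Rassf2, chosen among genes with a mean of at least 100 by the smallest root mean square difference of centred log2 values. That difference was 0.07 for Sipa1, Rapgef5 and Sirpa and 0.08 for Rxra and Rassf2, with Pearson's r of 0.995 to 0.996 over 6 libraries. The points share their libraries, size factors and groups. Of the members themselves, Tmem119 was closest to the members' mean (0.15, r = 0.987) and Fcrls farthest from it (0.87, r = 0.144).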

How the data were processed

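RNA-seq was performed on sorted cells of 3 control and 3 Sox9 KO mice. The authors aligned reads to mm10 with STAR 2.5.0a, normalized the alignments for depth with samtools, used GenomicAlignments and GenomicFeatures to count reads per gene, and scaled these with DESeq2 1.20.0. Which annotation and strand setting were used was not stated. The deposited signal values are named RPM, but 100% of them were whole multiples of 1 step per library (within 0.01 read). Reads were recovered by dividing by that step.

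Values were compared with limma 3.58.1 (R 4.3.3) as log2(value + 1), with a variance trend and two-sided p-values adjusted by Benjamini-Hochberg over the 18413 genes with a mean of at least 1. Genes were called at an adjusted p under 0.05 and 1.5-fold. The study used the same limits, without saying whether its p was adjusted. For relative values, the mean log2 level of 16 pan-myeloid genes was subtracted within each library. Exon lengths and coordinates came from the GENCODE annotation of GRCm38. The share of reads was compared by an exact permutation test, and single shares have exact (Clopper-Pearson) binomial intervals. Fits were tested on simulated data. Alternatives were other pseudocounts, filters, scalings, reference genes, a replicate block, edgeR 4.0.16 and DESeq2 1.42.0 on recovered reads, and leaving out each library. No column was left unused. The 9 genes and all lists were chosen with earlier results of these data known. In each list at most the 3 genes with the highest mean were to be named, and all ligands, partners, factors and signals could be. Crybb1, Sparc, Adgrg1, Ecscr, Clec7a, Gpnmb, Itgax, Lyve1, Fcrl1, Etv3, Kirrel, Cd5l, Fcrl5, Cd1d1, Cd1d2, Csrnp1 and Hmgxb3 were named after their values were seen. Axl, Cd9, Cd63, Fabp5 and Ch25h were also named after their values were seen. The values of some single genes of these lists are not printed.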

Additional observations from a re-analysis of the deposited data

How the results depend on the processing

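With 3 libraries a group, small differences between members could not be resolved. The count of members called higher was 8 or 9 under all 18 alternatives, and that of members called lower was 0. Relative to the pan-myeloid genes, 0 members were called higher and 2 or 3 lower under all 15 alternatives. The median log2 fold change of the members was 1.18 after quantile normalization and 1.51 to 1.85 with 1 library left out. Quantile normalization shifted the median of all genes by 0.27 and gave 5380 higher and 4100 lower calls against 4090 and 5299. Scaling to the same total shifted it by -0.23 (2937 and 6189 calls), and by -0.32 without Rn45s (2627 and 6595). The log2 fold change of Fcrls changed sign to -0.46 after quantile normalization, -0.084 at the same total and -0.17 at the same total without Rn45s, and it ran from -0.20 without KO replicate 3 to 0.65 without KO replicate 1. That of Cst3 became -0.017 after quantile normalization. Smad3 went to -0.084 and -0.17, and Ecscr to -0.12 and -0.21, at the same total with and without Rn45s. Ecscr ran from -0.12 without KO replicate 2 to 0.39 without KO replicate 1. Relative to the pan-myeloid genes, Csf1r was -0.070 without KO replicate 2, -0.020 without control replicate 3 and 0.18 without control replicate 1. The causes were not tested. Control and KO libraries share replicate numbers, but same-numbered libraries did not deviate together (r = -0.05, -0.01 and -0.01 over genes). A fit with the number as a block called 8 members higher, with a median of 1.64, and 4048 genes higher and 5227 lower in all.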

Other observations

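The genes around Fcrls on chromosome 3 were listed because Fcrls varied between KO mice. Fcrl1, a related Fc receptor-like gene of B cells, had normalized counts of 216, 154 and 121 in control and of 400.1, 718 and 737 in KO libraries. Fcrl1 was lowest among KO libraries in KO replicate 1, and its groups did not overlap (log2 fold change 1.90, limma adjusted p = 0.00015). Kirrel, a cell adhesion gene, had normalized counts of 161, 146 and 142 in control and of 39.7, 93.2 and 83.6 in KO libraries. KO replicate 1 was the lowest KO library, and Kirrel fell by 1.13 on the log2 scale (limma adjusted p = 0.012). Etv3, a transcription factor gene, had normalized counts of 3023, 2591 and 2950 in KO libraries, where KO replicate 1 was the highest, and rose by 1.46 (limma adjusted p = 9.2e-07). Among the remaining neighbours, Cd5l and Fcrl5 were lowest and Cd1d1 and Cd1d2 highest in KO replicate 1 of the KO libraries. All of these had 143 normalized counts or fewer. How often KO replicate 1 was lowest over all genes was not counted, so no pattern of the region is drawn from these orders.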
